A study of Mus musculus with 20 samples.

Results

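T cell receptor gene segments were followed across 5 cell populations sorted from the dorsal epidermis of mice and profiled by bulk RNA-seq. They were all genes named as a variable (V), diversity (D), joining (J) or constant (C) segment of the alpha, beta, gamma or delta receptor locus, 268 of the 53380 genes counted. Of these, 178 had at least 1 read, and the 27 with a normalized count of at least 10 in at least 3 of the 20 libraries are reported here. A normalized count is the number of reads on a gene divided by a size factor of the library.

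The populations were dendritic epidermal T cells (DETCs, sorted as alpha6- Sca1low Thy1+, 5 libraries), hair follicle stem cells (HFSCs, alpha6+ Sca1- CD34+, 4 libraries), Thy1hi keratinocytes (alpha6+ Sca1+ Thy1hi, 4 libraries), Thy1- keratinocytes (alpha6+ Sca1+ Thy1-, 4 libraries) and Thy1hi YFP+ keratinocytes (3 libraries). The YFP+ cells came from mice in which the Thy1 promoter drives an inducible Cre and opens a Rosa26 EYFP reporter, so they had Thy1 promoter activity when Cre was induced. The labels give every sample the genotype Thy1.2CreERT2-Rosa26-EYFP and no treatment, whereas the study's methods describe wild-type C57BL/6J mice, with pooling of animals, for the other populations. The age label climbs by 1 week from sample to sample, from 8 to 27 weeks, whereas the design text states a single age of 8 weeks. The labels do not tie samples to separate animals, so p-values measure the spread between libraries, which may be partly technical. The columns of 2 DETC libraries carry numbers that match no sample title, and these libraries are called DETC a and DETC b.

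T cell receptors are heterodimers of alpha with beta chains or gamma with delta chains. In a developing T cell each locus is rearranged so that 1 V segment, in beta and delta also D segments, and 1 J segment form the antigen-binding exon, which is spliced to a constant segment. DETCs are gamma-delta T cells that seed the epidermis from the fetal thymus, stay there, and carry a nearly invariant receptor. Its gamma chain is built from Tcrg-V5, Trgj1 and Tcrg-C1, and its delta chain from Trdv4, Trdd2, Trdj2 and Trdc. Tcrg-V5 is also called Vgamma3 in the numbering used by the study, and Trdv4 encodes Vdelta1.

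The V exons of that receptor and the joining segments of each locus with the most or nearly the most reads, with the canonical ones, are printed below from the GENCODE M21 transcripts (GRCm38). Capitals mark, in V segments, TANTNNTGT, the codons around the conserved cysteine at the end of the V exon. In J segments they mark TTN GNN NNN GG, written here as codons and searched without gaps. It covers the phenylalanine-glycine motif of J segments and also other residues at its first positions, such as the alanine codons GCA in Trgj1 and GCC in Trgj4. Letters were searched on the coding strand. The first was found in 110 of 176 V segments (62.5%) and the second in 65 of 80 J segments (81.25%). The second coding exon of Tcrg-V5 is at chr13:19192428-19192725 and that of Trdv4 at chr14:54075217-54075515, both on the plus strand.
Tcrg-V5: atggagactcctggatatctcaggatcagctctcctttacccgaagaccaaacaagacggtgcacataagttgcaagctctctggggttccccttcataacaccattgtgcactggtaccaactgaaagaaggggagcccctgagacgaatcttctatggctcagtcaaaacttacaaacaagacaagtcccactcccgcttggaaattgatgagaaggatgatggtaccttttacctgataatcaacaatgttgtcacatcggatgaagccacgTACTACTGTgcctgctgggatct
Trdv4: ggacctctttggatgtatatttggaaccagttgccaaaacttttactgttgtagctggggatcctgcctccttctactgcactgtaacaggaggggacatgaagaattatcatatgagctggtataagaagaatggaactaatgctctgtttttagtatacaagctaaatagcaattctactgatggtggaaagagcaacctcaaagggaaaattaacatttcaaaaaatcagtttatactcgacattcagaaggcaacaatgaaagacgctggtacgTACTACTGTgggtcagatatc
Trgj1: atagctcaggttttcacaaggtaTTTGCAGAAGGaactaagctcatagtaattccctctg
Trgj4: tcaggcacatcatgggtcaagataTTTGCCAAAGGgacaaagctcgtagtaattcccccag
Trdj1: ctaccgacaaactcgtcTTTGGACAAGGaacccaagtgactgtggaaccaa
Trdj2: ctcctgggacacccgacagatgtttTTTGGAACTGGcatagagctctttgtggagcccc
Traj6: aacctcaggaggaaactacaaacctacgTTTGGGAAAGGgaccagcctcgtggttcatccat
Trbj2-1: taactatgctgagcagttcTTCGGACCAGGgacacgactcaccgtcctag
Trbj1-7: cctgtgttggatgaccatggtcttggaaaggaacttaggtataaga
Trdd2: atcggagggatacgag
Trbd1: gggacagggggc
Trgj1 (chr13:19210343-19210402) lies upstream of Tcrg-C1, and Trgj4 (chr13:19342152-19342212) upstream of Tcrg-C4. Trbj1-7 is the only J segment of those printed without the motif. All J and D segments shown are at most 62 bases long, and Trbd1 and Trdd2 have 12 and 16 bases, which limits how many reads can be assigned to them.

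All 27 reported segments had their highest mean in DETCs. In the limma fit over 17204 genes, 27 of 27 were higher in DETCs than in each of the 4 keratinocyte populations at an adjusted p under 0.05. The share of all tested genes called higher in DETCs was 19.9% against Thy1hi, 18.9% against Thy1-, 21.2% against HFSCs and 20.5% against Thy1hi YFP+ cells, and 16.6%, 15.2%, 18.5% and 17.6% were called lower. Trbj1-1 and Trbj1-3 were not called by DESeq2 in any of the 4 comparisons, and Trbj1-3 against Thy1hi YFP+ cells lost its call under 13 alternatives in all. The count of 27 is a description and no support for a difference of the segments as a group, because 23 of them reached 10 in fewer than 3 keratinocyte libraries and so passed the filter through DETCs. The exceptions were Tcrg-C1, Trdc, Trdv4 and Trbc2. The 4 comparisons share the DETC libraries. All DETC libraries lay above all libraries of the other population for 26 segments against Thy1hi (18.8% of tested genes), 27 against Thy1- (18.2%), 26 against HFSCs (18.6%) and 26 against Thy1hi YFP+ cells (21.6%), Trbv15 and Trbj1-3 being the exceptions. The median log2 difference of the 27 was 4.16 against Thy1hi, 4.01 against Thy1-, 4.34 against HFSCs and 4.25 against Thy1hi YFP+ cells, beside medians over all tested genes of -0.0044, -0.091, 0.023 and 0.053. The same selection bears on these medians, which are a description as well. Tests of DETCs against the other populations for each of these 23 segments carry the same limit. These log2 differences are on the scale log2(normalized count + 1) and understate changes of low genes.

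**Figure D1:**
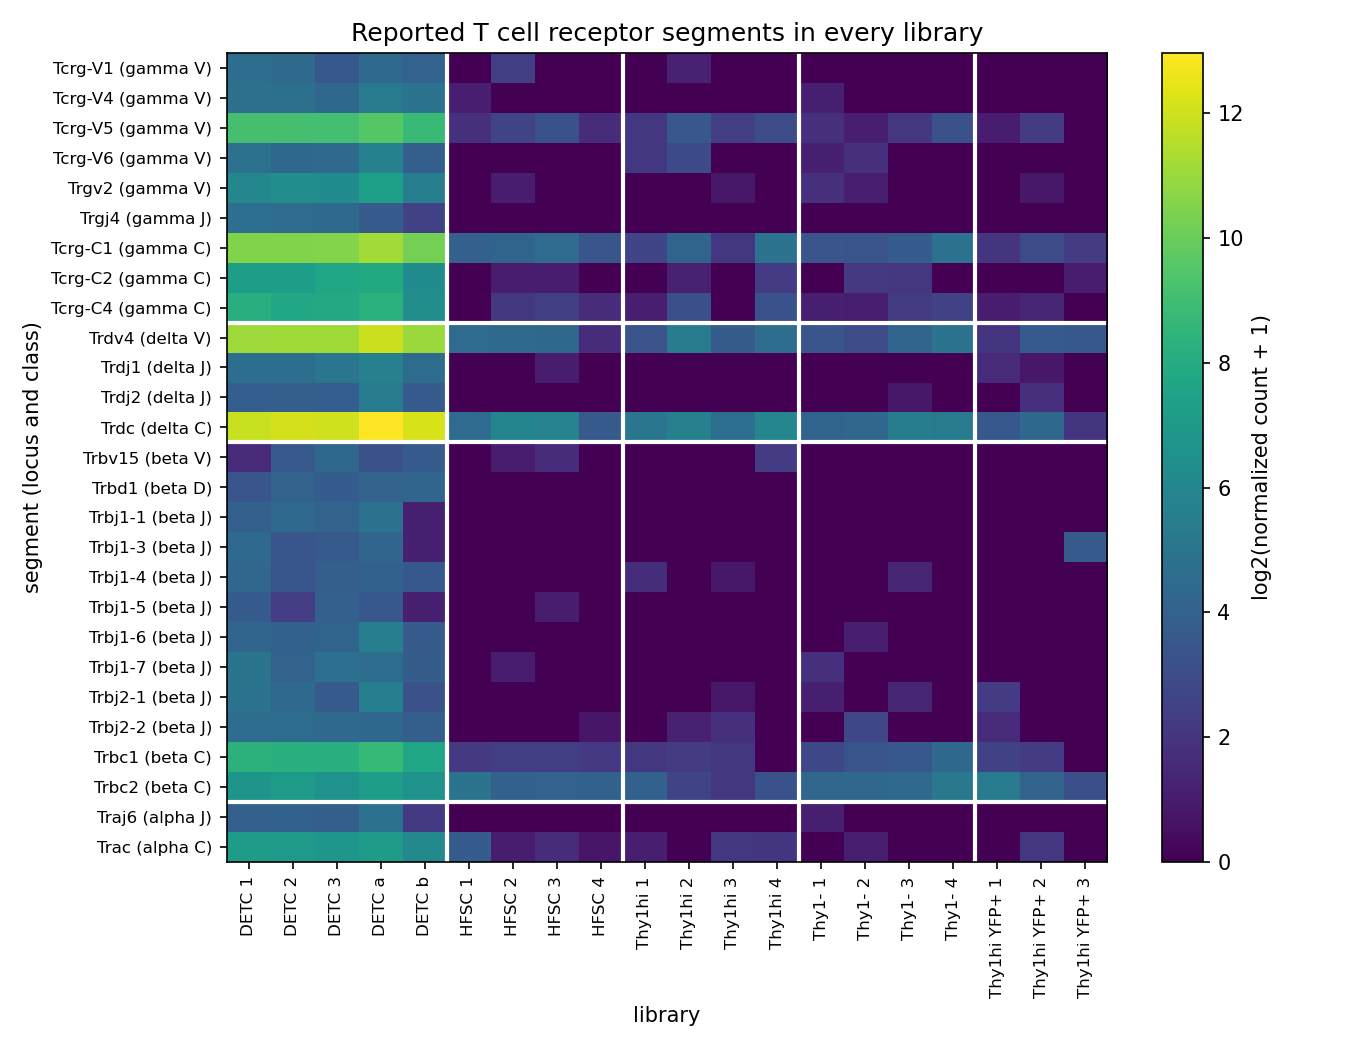
Colour gives log2(normalized count + 1) of the 27 reported segments (rows, by locus and class) in the 20 libraries (columns, by population). The DETC columns have the highest mean in every row, and in 25 of 27 rows all 5 lie above all other columns, Trdc, Trdv4, Tcrg-C1 and Tcrg-V5 are brightest, and Trbc2 is the row with the most even signal over the keratinocyte columns.

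The constant segment of the delta chain, Trdc (chr14:54142851-54148868, plus strand), was the most abundant segment. Its normalized counts in DETC 1, 2, 3, a and b were 3829.59, 4471.45, 4240.6, 8014.09 and 4713.91. In HFSCs they were 21.93, 56.48, 52.38 and 11.91, in Thy1hi cells 33.12, 48.74, 26.01 and 62.09, in Thy1- cells 17.03, 18.51, 42.59 and 40.99, and in Thy1hi YFP+ cells 10.96, 19.35 and 2.97. No keratinocyte library came near a DETC library, and DETC a stood above the other DETC libraries. The log2 difference was 6.88 ± 0.47 (SE) against Thy1hi, with an adjusted p of 6.4e-10 (limma), and 8.95 ± 0.51 against Thy1hi YFP+ cells. Over summed reads, DETCs held 117 times the Thy1hi level of Trdc, with a 95% counting interval of 100.2 to 137. Such intervals cover counting error only. Of the 50-base stretches of Trdc, 6.68% occur in other transcripts, those of Trdv5 and of 944 genes that are not receptor segments. The part of these stretches in the low keratinocyte counts was not tested. The exons of Trdc overlap those of Trdv5, on the opposite strand, and of Gm43434, and the strand setting of the counting is not given in the sources used here.

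Trdv4, the delta V segment, followed the same order. Its normalized counts were 2131.03, 2188.44, 2190.66, 3867.78 and 2076.52 in the DETC libraries and between 2.1 and 40.83 in the keratinocyte libraries. DETC a was again high, and the other 4 DETC libraries lay close together. The log2 difference ranged from 6.95 ± 0.56 (SE) against Thy1hi to 8.16 ± 0.61 against Thy1hi YFP+ cells, with adjusted p-values of 6.0e-09 and 2.2e-09 (limma). No 50-base stretch of Trdv4 occurs in another transcript. Per kilobase of exon its level in DETCs was 5610 ± 1737 (SD, n = 5), against 1308 ± 436 for Trdc.

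Tcrg-C1 (chr13:19214103-19217024), the constant segment of the canonical gamma chain, had normalized counts of 1439.28, 1479.64, 1505.24, 2280.33 and 1220.21 in the DETC libraries. The HFSC libraries had 15.01, 17.38, 22.45 and 9.81, the Thy1hi libraries 5.52, 17.12, 3.25 and 30.07, the Thy1- libraries 9.73, 9.26, 12.62 and 28.69, and the Thy1hi YFP+ libraries 2.99, 6.97 and 3.96. The HFSC, Thy1hi and Thy1- libraries overlapped each other. Thy1hi YFP+ libraries overlapped Thy1hi libraries but lay below all HFSC and Thy1- libraries. No keratinocyte population overlapped DETCs. The log2 difference was 7.12 ± 0.47 (SE) against Thy1hi and 6.55 ± 0.47 against HFSCs, with adjusted p-values of 4.0e-10 and 1.2e-09 (limma).

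Tcrg-V5 (chr13:19192278-19192725) had normalized counts of 563.58, 565.41, 549.44, 750.51 and 439.56 in DETCs and at most 10.54 in any other library. Its log2 difference was 6.41 ± 0.50 (SE) against Thy1hi and 8.05 ± 0.54 against Thy1hi YFP+ cells, with adjusted p-values of 3.5e-09 and 5.5e-10 (limma). Per kilobase of exon, Tcrg-V5 had a level of 1682 ± 328 in DETCs and Tcrg-C1 one of 1715 ± 438 (SD, n = 5), so these levels differed by less than the spread between libraries.

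The other gamma constant segments were lower. Tcrg-C4 had normalized counts of 286.68, 218.64, 228.47, 308.71 and 82.87 in DETCs, and Tcrg-C2 had 153.61, 146.44, 200.8, 233.25 and 74.46. DETC b was the lowest of the 5 for both. Keratinocyte libraries reached at most 8.73 for Tcrg-C4 and 3.88 for Tcrg-C2. Tcrg-C3 had 4 reads over the 5 DETC libraries and a highest value of 2.43, in a Thy1- library. Coding sequences of Tcrg-C1 and Tcrg-C2 are 97.4% identical, and 25.43% of the 50-base stretches of Tcrg-C2 also occur in another gamma constant segment, so the split of reads between them is uncertain. Tcrg-C4 shares no 50-base stretch with the others.

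Constant segments of the alpha and beta chains were also present in the DETC libraries. Trbc1 (chr6:41538218-41539881) had normalized counts of 319.95, 294.91, 293.3, 412.98 and 204.17, and Trac (chr14:54220521-54224206) had 144.81, 129.15, 112.26, 135.83 and 67.26. In keratinocyte libraries Trac reached 12.7 in HFSC 1 and at most 3.25 elsewhere, and Trbc1 lay between 0 and 18.85. The log2 difference of Trac ranged from 5.03 ± 0.63 (SE) against HFSCs to 6.57 ± 0.63 against Thy1- cells, with adjusted p-values of 2.2e-06 and 6.6e-08 (limma). That of Trbc1 ranged from 4.70 ± 0.52 against Thy1- cells to 6.60 ± 0.57 against Thy1hi YFP+ cells, with adjusted p-values of 5.1e-07 and 1.5e-08 (limma).

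Trbc2 (chr6:41546730-41548352) had the smallest difference between DETCs and keratinocytes among the 7 reported constant segments. Its normalized counts were 105.67, 135.25, 96.45, 153.67 and 97.28 in DETCs, 31.17, 15.21, 16.04 and 15.41 in HFSCs, 15.46, 5.27, 3.25 and 8.73 in Thy1hi cells, 18.24, 19.67, 20.51 and 36.07 in Thy1- cells, and 37.88, 16.26 and 7.93 in Thy1hi YFP+ cells. All keratinocyte libraries stayed below all DETC libraries. The log2 difference was 2.30 ± 0.42 (SE) against Thy1- and 3.85 ± 0.42 against Thy1hi, with adjusted p-values of 2.4e-04 and 3.7e-07 (limma). Trbc1 and Trbc2 are 95.56% identical in coding sequence and share 50-base stretches that make up 41.13% and 44.01% of their lengths, so reads of the shared part may have been discarded or misplaced.

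**Figure D2:**
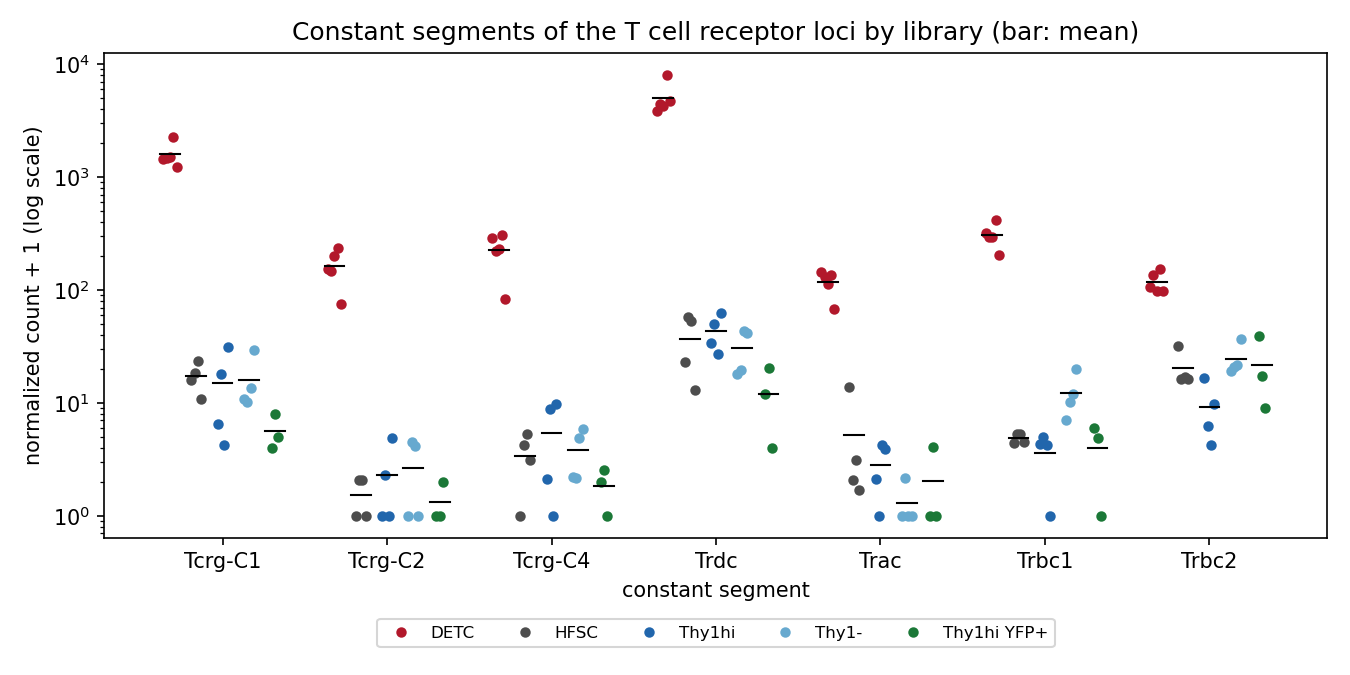
Normalized count + 1 (log scale) of the 7 reported constant segments in each library, by population, with a bar at the mean. DETC libraries (red) lie above all others for every segment, by the most for Trdc and Tcrg-C1, and Trbc2 has the narrowest gap, from 37.88 in the highest keratinocyte library to 96.45 in the lowest DETC library.

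Exact permutation tests, two-sided, were also made on the mean log2 levels of the 7 constant segments, 49 in all. The exact tests of DETCs against HFSCs, Thy1hi and Thy1- cells gave p = 0.0159 for each of the 7, the smallest that 5 against 4 libraries allow, and an adjusted p of 0.037. The exact tests against the 3 Thy1hi YFP+ libraries gave p = 0.0357, again the smallest possible, and an adjusted p of 0.0583 over the 49 tests. Of the 7, only Tcrg-C1, Trdc and Trbc2 reached 10 in at least 3 keratinocyte libraries. The others were tested because of their DETC values, so their exact p-values in comparisons with DETCs are a description.

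Of the reads on constant segments of all loci in DETCs, Trdc took 66.4% ± 4.8 (SD, n = 5), Tcrg-C1 21.1% ± 1.75, Trbc1 4.10% ± 0.753, Tcrg-C4 3.02% ± 1.19, Tcrg-C2 2.15% ± 0.677, Trac 1.62% ± 0.518 and Trbc2 1.59% ± 0.248. These are shares of reads and not of receptors, since the segments differ in length. Trdc has 3865 exon bases and Tcrg-C1 has 924.

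Within the gamma locus, Tcrg-V5 held 79.4%, 78.6%, 80.5%, 72.3% and 80.3% of the V reads in DETC 1, 2, 3, a and b. The exact binomial 95% interval of DETC a, 68.92% to 75.42%, lay below those of DETC 1, 2, 3 and b, which began at 76.32%, 75.43%, 77.73% and 76.31%. Trgv2 was second, with 8.97%, 11.5%, 11.5%, 15.3% and 8.33%, and with normalized counts of 63.6, 82.37, 78.27, 159.16 and 45.64. Tcrg-V4 took 3.95% ± 0.946 (SD, n = 5), Tcrg-V6 3.44% ± 0.947 and Tcrg-V1 2.57% ± 0.751. Normalized counts of Tcrg-V6 were 27.4, 19.32, 21.35, 50.77 and 14.41 in DETCs, those of Tcrg-V4 were 26.42, 26.44, 19.76, 41.16 and 30.02, and keratinocyte libraries reached at most 6.59 and 1.22. Tcrg-V7 and Tcrg-V3 had 21 and 4 reads over all DETC libraries. Coding sequences of Trgv2, Tcrg-V1 and Tcrg-V3 are between 94.57% and 95.68% identical, whereas no 50-base stretch of Tcrg-V5 or Tcrg-V6 occurs elsewhere. Tcrg-V6 is the V segment of another fetal-derived gamma-delta subset known for interleukin-17. Tcrg-V4 shares exon bases with Gm31887, so its reads cannot all be assigned to it.

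**Figure D3:**
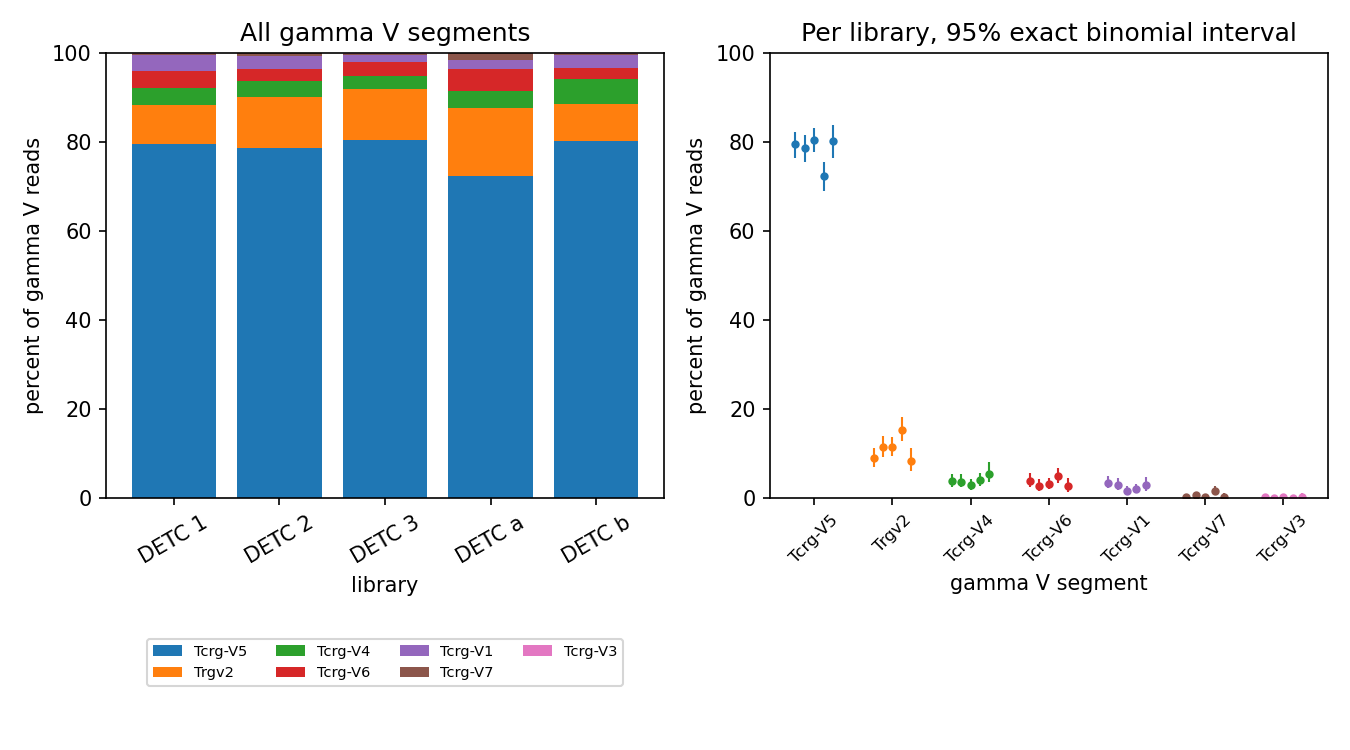
Left, stacked percent of gamma V reads by segment in each DETC library. Right, the same percents per segment as points for DETC 1, 2, 3, a and b with exact binomial 95% intervals. Tcrg-V5 lies between 72.3% and 80.5%, lowest in DETC a, where Trgv2 is highest at 15.3%.

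Within the delta locus the V reads fell almost entirely on Trdv4, with 99.8%, 99.6%, 99.6%, 99.9% and 99.9% in the 5 DETC libraries. Summed over DETCs, 11649 of 11679 delta V reads were on Trdv4. Part of the rest, on Trdv5, lies where Trdv5 and Trdc overlap.

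Most gamma and delta J reads fell on segments other than those of the canonical receptor. Trgj4 had normalized counts of 25.44, 22.37, 21.35, 12.35 and 4.8 in DETCs and no read in any keratinocyte library. Trgj1, the canonical gamma J segment, had 5.87, 5.08, 7.12, 2.74 and 3.6, below the reporting threshold. Together with Trgj3, the gamma J segments had 118 reads in DETCs, of which Trgj4 took 74.6% (exact binomial 95% interval 65.7% to 82.1%). For the delta locus, Trdj1 had 24.46, 24.41, 33.2, 49.39 and 22.82, and Trdj2, the canonical one, had 13.7, 14.24, 13.44, 41.16 and 12.01. Trdj1 was above Trdj2 in all 5 libraries and held 63.7% ± 5.99 (SD, n = 5) of the delta J reads. Trdd2 had 7 reads, in DETC 1 and DETC 3 alone. Whether a read that spans a V to J junction could be aligned and counted was not tested.

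The beta locus had a different make-up. Of its 14 J segments 8 were reported, and all 14 had reads in DETCs. Trbj1-7, Trbj2-1 and Trbj2-2, with the highest means over the 20 libraries, had normalized counts from 13.21 to 31.31, from 8.41 to 48.02 and from 14.41 to 23.48 in the DETC libraries. The leading J segment, Trbj1-7, held 13.1% of 823 beta J reads. Trbd1 had 9.78, 16.27, 12.65, 16.46 and 18.01 in DETCs and no read in the other 15 libraries, so its level in DETCs was at least 18.7-fold higher than in Thy1hi cells, with 3 reads over the group as the floor for a count of 0. Trbv15 was the only reported beta V segment, at 1.96, 11.19, 18.97, 8.23 and 12.01, and DETC 1 fell below Thy1hi 4, at 3.88. Trbv15 was 1 of the 2 segments just inside the threshold, which 3 libraries had to reach, with 11.19 in the lowest of these 3, beside Trbj1-5 with 10.98. Just outside were Traj12 with 9.15 and Trbj1-2 with 8.81.

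In the alpha locus, Traj6 was the only reported segment besides Trac, with 14.68, 15.25, 14.23, 28.81 and 3.6 in DETCs. Reads in DETCs reached 55 of the 60 alpha J segments, and Traj6 held 12.1% of the 595 reads. Alpha V segments had 148 reads in DETCs over 38 of 128 segments, led by Trav6-7-dv9 with 21, of which DETC a gave a normalized count of 20.58, the highest single value of any segment that was not reported. Of the 128 alpha V segments, 118 share a 50-base stretch with another transcript, so their reads are uncertain.

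V and J reads were set against the constant segments of their locus in each DETC library. Per 100 C reads there were 37.7 ± 1.79 (SD, n = 5) V reads in the gamma locus, 49.8 ± 4.33 in the delta locus, 14.4 ± 4.2 in the beta locus and 26.7 ± 4.19 in the alpha locus. For J reads the alpha and beta loci stood above the other two, with 1.21 ± 0.578 in the gamma locus, 0.966 ± 0.164 in the delta locus, 39.4 ± 9.96 in the beta locus and 102 ± 28.2 in the alpha locus. In every DETC library the beta and alpha loci had more J than V reads and the gamma and delta loci more V than J reads. No test was made of these ratios, since loci differ in the number and length of their segments.

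**Figure D4:**
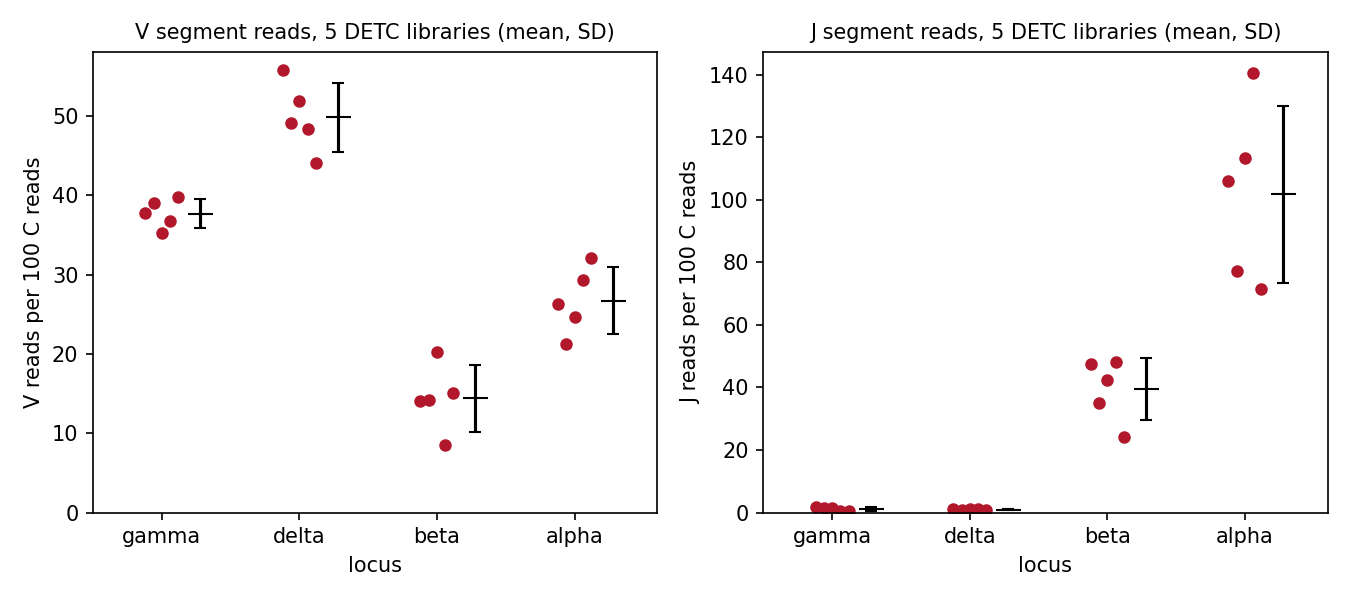
Reads on V segments (left) and J segments (right) per 100 reads on constant segments of the same locus, 1 point per DETC library, with mean and SD beside them. J reads are near 1 per 100 in the gamma and delta loci and between 71.4 and 140 per 100 in the alpha locus.

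The DETC libraries differed among themselves. DETC a had the highest normalized counts of Trdc, Trdv4, Tcrg-C1, Tcrg-V5, Trgv2 and Trbc1, and DETC b was lowest for Tcrg-C1, Tcrg-C2, Tcrg-C4, Trac, Trbc1, Traj6 and Trgj4. Markers of alpha-beta T cells (Cd4, Cd8a, Cd8b1, Cd5 and Cd6) summed to 614.45, 397.62, 486.21, 256.57 and 38.42 in DETC 1, 2, 3, a and b. Basal keratinocyte markers (Krt5, Krt14, Krt15, Itga6 and Col17a1) summed to 11535 in DETC a and to between 39575 and 55467 in the other DETC libraries, against 68165 to 258978 in keratinocyte libraries. T cell markers summed to 35400 in DETC a, 16617 in DETC b and between 23612 and 24499 in the other DETC libraries. The part of these lists in the segment values was not tested.

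Of 18 genes that assemble or signal from the receptor, 14 were tested. Against Thy1hi, 13 were higher in DETCs, where 19.9% of all tested genes were, and 1, Syk, was lower. The median log2 difference of the 14 was 5.92. Among the 14, Cd8b1 reached at most 2.63 in keratinocyte libraries, so it passed the filter through DETCs and its calls are a description. Cd3e and Cd3g, chains of the CD3 complex that carries the receptor to the surface, differed by 6.57 ± 0.45 (SE) and 6.59 ± 0.41, and Zap70, the kinase that docks on CD3, by 6.33 ± 0.53. Cd3d, another CD3 chain, differed by 2.93 ± 0.35, and Syk, a relative of Zap70, by -1.15 ± 0.24. The adjusted p-values ranged from 9.4e-12 for Cd247, the zeta chain, to 0.0194 for Cd4 (limma). Against Thy1- cells 12 were higher, beside 18.9% of all tested genes, and Cd4 did not pass the test, with an adjusted p of 0.30 (limma). The recombinase genes Rag1 and Rag2, the pre-receptor chain Ptcra and the terminal transferase Dntt did not reach the filter.

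All 6 T cell markers (Cd3d, Cd3e, Cd3g, Cd247, Cd2 and Ptprc) and all 5 DETC markers (Klrk1, Itgae, Il2rb, Xcl1 and Fcer1g) were higher in DETCs in each comparison (limma). Between 18.9% and 21.2% of all tested genes were called higher in these comparisons. Xcl1 reached at most 6.52 in keratinocyte libraries, so it passed the filter through DETCs and its calls are a description. Among 4 B cell markers, Ighm alone was tested and was higher in DETCs, at 226.99 to 518.63. The 4 Langerhans cell markers summed to 900.06 to 2709.1 in DETCs and to 60.26 to 4262.88 in keratinocyte libraries. Of 5 markers of interleukin-17 gamma-delta T cells, 4 were tested, and Il17a did not reach the filter. Blk and Ccr6 were higher in DETCs than in Thy1hi cells (limma), beside 19.9% of all tested genes. Blk and Ccr6 reached at most 4.86 and 5.35 in keratinocyte libraries, so they too passed the filter through DETCs. All 5 alpha-beta T cell markers were higher in DETCs than in Thy1hi cells (limma), beside 19.9% of all tested genes. Against Thy1- cells 3 of 5 were higher (limma), beside 18.9% of all tested genes. Cd8b1 reached at most 2.63 in keratinocyte libraries, so it too passed the filter through DETCs and its calls are a description. Cd4, Cd5 and Cd6 had medians of 1.22, 2.43 and 1.99 over the keratinocyte libraries, so their calls carry a similar limit.

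Reads on all receptor segments together came to 777 to 1604 per 1000000 reads on genes in DETC libraries, with a mean of 1049 ± 324 (SD, n = 5). The means were 13.2 ± 5.78 in Thy1hi (n = 4), 14.6 ± 3.4 in Thy1- (n = 4), 9.64 ± 2.25 in HFSC (n = 4) and 6.70 ± 2.34 in Thy1hi YFP+ libraries (n = 3). Relative to the DETC mean, the 15 libraries had 0.189% to 1.90% for Tcrg-C1, 0.0588% to 1.23% for Trdc, 0.0843% to 1.64% for Trdv4 and at most 1.84% for Tcrg-V5. Of the T cell and DETC markers outside the loci, Cd3e had 0.085% to 1.79%, Cd3g 0.244% to 1.65% and Ptprc 0.244% to 1.33%, while Itgae reached 2.31%, Xcl1 2.89% and Fcer1g 3.56%. In bulk samples fewer cells of a type and less RNA per cell cannot be told apart. Trbc2 stood at 2.76% to 32.2% of the DETC mean, and Cd3d at 4.41% to 20.8%.

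**Figure D5:**
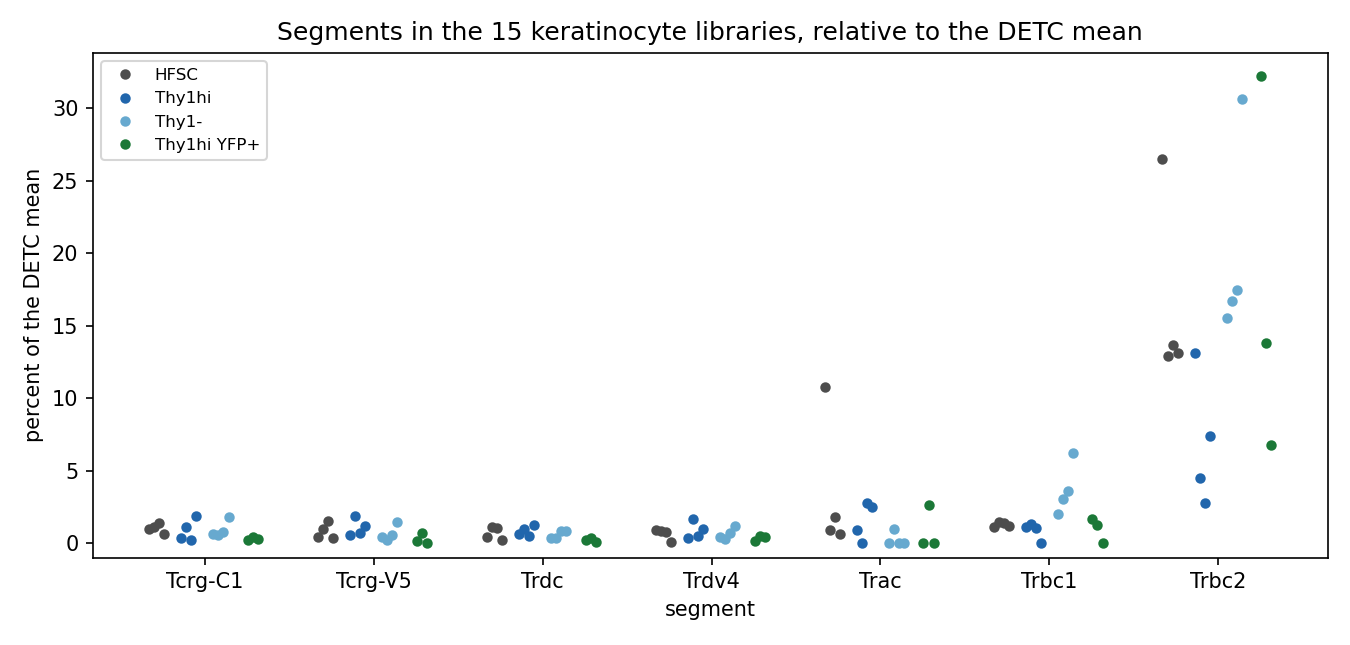
Normalized counts of 7 segments in each of the 15 keratinocyte libraries, as percent of the mean of the 5 DETC libraries. Tcrg-C1, Tcrg-V5, Trdc and Trdv4 stay under 2%, Trac reaches 10.8% in HFSC 1, and Trbc2 ranges from 2.76% to 32.2%.

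Summed over the keratinocyte libraries, the gamma and delta V reads fell mostly on the segments that led in DETCs. Tcrg-V5 had 64 of 90 gamma V reads, 71.1% with an exact binomial 95% interval of 60.6% to 80.2%, against 78.1% in DETCs. Trdv4 had 240 of 248 delta V reads, 96.8% with an interval of 93.7% to 98.6%, against 99.7% in DETCs. Tcrg-C1 had 77.2% of 259 gamma C reads, with an interval of 71.6% to 82.2%, against 80.0% in DETCs. Shares in single populations varied. In Thy1hi cells Tcrg-V6 had 8 of 35 gamma V reads, 22.9% with an interval of 10.4% to 40.1%. These were 3 reads in Thy1hi 1 and 5 in Thy1hi 2, with 0 in Thy1hi 3 and Thy1hi 4. Thy1- cells had 3 of 24 on Tcrg-V6, 12.5% with an interval of 2.66% to 32.4%, all in libraries 1 and 2. In Thy1hi cells Trdv4 had 92.0% of delta V reads, with an interval of 84.1% to 96.7%. In Thy1hi 1 Trdv4 had 8 of 14. Delta J reads of keratinocytes were split between Trdj1 and Trdj2, 4 of 8 on each. Summed reads give equal weight to reads and not to libraries.

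Beta constant reads were split otherwise. Trbc1 held 75.2%, 68.6%, 75.3%, 72.9% and 67.7% of the Trbc1 and Trbc2 reads in the DETC libraries. Its share was below every DETC library in all keratinocyte libraries, from 0 of 9 reads in Thy1hi 4 to 4 of 8 in Thy1hi 3. Summed over populations it was 17.0% in HFSCs (exact binomial 95% interval 10.1% to 26.2%), 24.4% in Thy1hi (12.4% to 40.3%), 32.9% in Thy1- (25.5% to 41.0%) and 13.0% in Thy1hi YFP+ cells (6.41% to 22.6%). Likewise, Trbc2 made up 1.47% to 2.22% of the reads on Trbc2, Trdc and Tcrg-C1 together in DETC libraries and 7.41% to 73.1% in keratinocyte libraries. No test was made of these shares, which were chosen after the values were seen.

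Alpha V reads outnumbered Trac reads in 3 keratinocyte populations. Thy1- cells had 47 alpha V reads and 1 Trac read over 4 libraries, Thy1hi cells had 34 and 8, and Thy1hi YFP+ cells had 7 and 4, whereas HFSCs had 6 and 15 and DETCs had 148 and 572. The 94 alpha V reads of keratinocytes were spread over 31 segments, of which none had more than 10.

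Between keratinocyte populations 0 of the 27 segments passed the limma test in 3 comparisons. For Thy1hi against Thy1-, 0.116% of all tested genes were called higher and 0.221% lower, and 2 segments had an unadjusted p under 0.05. These were Trbc1 and Trbc2, both lower in Thy1hi, and neither overlapped between the populations, a pattern seen in 3.17% of tested genes. Trbc1 had 3.31, 3.95, 3.25 and 0 in Thy1hi against 6.08, 9.26, 11.04 and 18.85 in Thy1-, a log2 difference of -1.90 ± 0.55 (SE) with an adjusted p of 0.21 (limma). Trbc2 differed by -1.55 ± 0.44, with an adjusted p of 0.20 (limma). With the replicate number as a block, 3.19% of tested genes were called lower and the adjusted p-values were 0.099 and 0.0503 (limma). DESeq2 on whole reads called 0.639% of tested genes lower, with adjusted p-values of 0.020 for Trbc1 and 0.068 for Trbc2. edgeR called 0.174% lower and neither segment. The exact permutation test gave p = 0.0286 for each, the smallest that 4 against 4 libraries allow, and an adjusted p of 0.0583. Log2 differences of Tcrg-C1, Trdc and Trdv4 were -0.38 ± 0.49, 0.54 ± 0.49 and 0.40 ± 0.59 (SE) and did not pass the test. Within Thy1- libraries Trbc1 and Trbc2 were both highest in library 4, where Tcrg-C1 and Trdv4 were highest too.

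For Thy1hi YFP+ against Thy1hi cells, 0.0116% of tested genes were called higher and 0% lower, and 3 segments had an unadjusted p under 0.05. Trdc was lower by 2.06 on the log2 scale (-2.06 ± 0.53, SE), with an adjusted p of 0.21 (limma), and the libraries did not overlap, as in 5.55% of tested genes (4.92% in the other direction). DESeq2 called Trdc with an adjusted p of 0.048, and called 59 of all 17204 genes higher and 43 lower. edgeR called 0 segments. Tcrg-V5 differed by -1.64 ± 0.57 with an adjusted p of 0.38, and Trbc2 by 1.17 ± 0.48 with an adjusted p of 0.48 (limma). The summed T cell markers were 109.65 to 207.45 in Thy1hi YFP+ and 225.17 to 395.15 in Thy1hi libraries, and their part in the Trdc difference was not tested.

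For Thy1hi against HFSCs, 6.51% of tested genes were called higher and 6.86% lower, and 1 segment had an unadjusted p under 0.05. Trbc2 differed by -1.27 ± 0.44 (SE) with an adjusted p of 0.063 (limma). All 4 Thy1hi libraries lay between 3.25 and 15.46 and all HFSC libraries between 15.21 and 31.17. Thy1hi 1 lay above HFSC 2 and HFSC 4, while 9.81% of tested genes were lower without overlap and 9.46% higher. Both edgeR and DESeq2 called 0 segments. Without Thy1hi 1, the highest Thy1hi library, the adjusted p was 0.0275. Of the 14 pathway genes Fyn, a kinase that phosphorylates CD3, was lower in Thy1hi cells in this comparison (limma). Trdc differed by 0.42 ± 0.49 and Trdv4 by 0.56 ± 0.59 in the same comparison.

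Over all 20 libraries, the genes outside the receptor loci whose log2 values were most like those of Tcrg-C1 were Cd3g (Pearson's r = 0.989), Gramd1b (0.986), Klrk1, an activating receptor of DETCs (0.985), Avil (0.985) and Fam174b (0.985). This r mostly reflects the gap between DETCs and the rest. Over the 15 keratinocyte libraries, Bicral (0.871), Gdpd5 (0.862), Gramd1b (0.856), Cd3g (0.854) and Tmem47 (0.851) came first, and Trdc had 0.708, Trdv4 0.653, Trbc1 0.164 and Trbc2 0.171. These r are descriptions over genes with low counts and carry no test.

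The 241 segments that were not reported were 90 with no read in any library and 151 with reads, of which 67 had reads in DETC libraries only and 20 had reads in keratinocyte libraries only. By locus, alpha had 2 of 189 segments reported, beta 12 of 53, delta 4 of 11 and gamma 9 of 15. Of the 268, 44 are annotated as pseudogenes. The libraries held 7781256 to 12982393 reads on genes, and 1 read stands for a normalized count near 1, so a segment without a read in a library may still have been transcribed below that level.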

How the data were processed

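Bulk RNA-seq of 20 libraries was analysed from 1 deposited table. Per the labels and methods, the authors used STAR (mm10) and featureCounts, no version being given in the sources used here, and the values show that each library was divided by 1 DESeq2 size factor (0.729 to 1.43). The deposited values are this normalized signal, rounded to 2 decimals. In every library 100% of the values came out as whole reads (tolerance 0.0055); these were kept for shares and count tests. Depth was 7781256 to 12982393 reads on genes. In Thy1- library 4, values stood in the order of names without hyphens and were put back (3212 genes, 0 of them segments), which raised their correlation with Thy1- libraries 1 to 3, averaged, from 0.0545 to 0.932. Names and coordinates of all 268 segments matched GENCODE M21 (GRCm38).

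The 17204 genes that reached 10 in 3 or more libraries were fitted with limma 3.58.1 (R 4.3.3, trend) on log2(value + 1), 1 mean per population, two-sided, Benjamini-Hochberg adjusted over all genes with a threshold of 0.05. This fit was tested on simulated data. Shares have exact binomial intervals (scipy 1.17.1). Alternatives were pseudocounts of 0.1 and 10, no filter, rescaling, edgeR 4.0.16, DESeq2 1.42.0, other sets of libraries, a replicate block and the deposited order.

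Deviations of same-numbered Thy1hi and Thy1- libraries correlated with r from 0.293 to 0.716 over 4 pairs, beside -0.65 to 0.51 over 12 other pairs. For DETC and HFSC libraries r was 0.171 to 0.333 over 3 same-numbered pairs and -0.32 to 0.37 over 17 others. Other pairs reached into the first range and above the second, so the numbers do not clearly pair the DETC and HFSC libraries. For Thy1hi against Thy1-, all 4 same-numbered pairs were positive. There the replicate block raised the calls from 20 higher and 38 lower to 589 and 548. Whether these libraries are pairs is not given by the labels, so the main fit left them unpaired. Named genes were all constant segments, the segments of the canonical receptor, the 3 V, 3 D and 3 J segments of each locus with the highest mean, those nearest the threshold, a fixed receptor pathway list and the 5 genes most like Tcrg-C1. Members and lists were chosen with earlier results of these data known. The design text mentions 2 batches and the labels name 2 library kits, but no label gives the batch of a sample, so batch and population cannot be told apart here.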

Additional observations from a re-analysis of the deposited data

Results flagged for a closer look

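Among 42 groups of 4 or 5 values, 8 held a library set apart from the rest of its group. The groups share libraries, so this count is a description and cannot be set against a chance rate. In DETC a the normalized counts of Tcrg-C1 (2280.33), Trdc (8014.09), Trdv4 (3867.78) and Trdj2 (41.16) lay far above the other DETC libraries, which reached 1505.24, 4713.91, 2190.66 and 14.24. In the same library Tcrg-V5 took 72.3% of gamma V reads, against at least 78.6% in the others. Trbc2 was high in Thy1- 4 (36.07, others up to 20.51) and in HFSC 1 (31.17, others up to 16.04). Trdv4 was low in HFSC 4 (2.1, others at least 19.24).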

How the results depend on the processing

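Without a filter on low values, 63, 64, 68 and 58 of 178 segments were called higher in DETCs than in Thy1hi, Thy1-, HFSC and Thy1hi YFP+ libraries, more than the 27 reported because more were tested. Of all 43619 genes tested without a filter, 3179, 3005, 3380 and 3200 were called higher. With DESeq2, 25 segments were called in each of these comparisons, Trbj1-1 and Trbj1-3 being lost, and 1 in Thy1hi against Thy1- (Trbc1) and in Thy1hi YFP+ against Thy1hi (Trdc). Of all 17204 genes, DESeq2 called 3575, 3422, 3734 and 3658 higher in the comparisons with DETCs. It called 110 lower in Thy1hi against Thy1- and 43 lower in Thy1hi YFP+ against Thy1hi. Without Thy1hi replicate 1, 1 segment (Trbc2) was called lower in Thy1hi against HFSCs, beside 795 of all 17116 genes tested. Trbj1-3 against Thy1hi YFP+ cells lost its call under 13 alternatives but not without Thy1hi YFP+ 3, the keratinocyte library that held all its keratinocyte reads (11.89). Leaving out 1 library at a time gave 25 to 27 called segments against Thy1hi, Thy1- and HFSC libraries and 24 to 27 against Thy1hi YFP+ libraries. These fits called 2860 to 3644 of all genes higher.

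The replicate block, applied in every comparison, left 27 segments called in DETCs against HFSCs and 0 in Thy1hi against Thy1-. In DETCs against Thy1hi YFP+ cells it left 26. Of all 17204 genes, the block fit called 3887 higher in DETCs against HFSCs and 3345 in DETCs against Thy1hi YFP+ cells.

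Signs of small differences turned as follows. Tcrg-C1 in Thy1hi against Thy1- ranged from -0.87 to 0.087 when 1 library was left out, being above 0 only without Thy1hi replicate 3. Trbc1 in Thy1hi YFP+ against Thy1hi (-0.0043 as reported) was 0.027 with a pseudocount of 10, in limma and in the exact test alike, 0.23 with edgeR and with DESeq2, and ranged from -0.55 (without Thy1hi replicate 4) to 0.81 (without Thy1hi YFP+ replicate 3) when 1 library was left out, with 0.15 to 0.22 without Thy1hi replicates 1, 2 or 3. Without HFSC replicate 4, Trdc and Trdv4 in Thy1hi against HFSCs were -0.0015 and -0.14, the lowest of ranges that reached 0.72 and 0.89. In the exact test, Tcrg-C4 in Thy1hi against Thy1- was -0.498 with a pseudocount of 0.1. Trdv4 was 100% of delta V reads when only reported V segments were counted, by construction. Rescaling to the same total moved the median of all genes from -0.091 to -0.276 (log2) for DETCs against Thy1-, where the genes called higher and lower went from 3250 and 2621 to 2441 and 3157, from -0.018 to -0.14 for Thy1hi against Thy1-, and left 27 called against Thy1hi, Thy1- and HFSC libraries. The cause of these shifts was not tested, and depth limits what can be said of segments with 1 to 10 reads per library.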
